A study of Rattus norvegicus with 172 samples.

Results

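The interleukin-1 (IL-1) and tumour necrosis factor (TNF) systems were followed in injured rat spinal cord through 9 genes: the ligands Il1a, Il1b and Tnf, the signalling receptors Il1r1, Tnfrsf1a and Tnfrsf1b, and the brakes Il1rn, Il1r2 and Nfkbia. They are 9 of the 14218 genes measured by probe sets that carry a single gene symbol. All 9 matched the array, through 13 probe sets. A gene with several probe sets (3 for Il1r1, 2 each for Il1a and Tnf) was read from whichever of them was brightest on average in cord.

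The tissue came from female Wistar rats, 2 months old, whose cord was cut across at T7-8 with removal of 5 mm. In the NT-3 tube arm a chitosan tube holding chitosan carriers of the growth factor neurotrophin-3 (NT-3) was placed in the gap. The tube alone arm received an empty chitosan tube, and the lesion control arm had the same operation with nothing implanted. Segments of 5 mm from the lesion and from the stumps rostral and caudal to it, dura and meninges included, were taken on days 1, 3, 10, 20, 30, 60 and 90. The lesion was sampled from day 3 on, and in the tube alone arm on day 3 only. Each group had 3 arrays (2 for tube alone rostral on day 10), each hybridised with RNA pooled from 4 animals. Normal cord at T7-8 gave 3 arrays, which every comparison with normal cord shares. Arms were compared on 164 injured arrays in 55 groups. The meninges, and any muscle or blood that came with a segment, were part of what was measured.

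IL-1α and IL-1β act through the receptor encoded by Il1r1, and TNF acts through those encoded by Tnfrsf1a and Tnfrsf1b. Both routes lead to the release of the transcription factor NF-kB from the protein IkBα, the product of Nfkbia, and NF-kB in turn drives many inflammatory genes, Nfkbia among them. IL-1 is held back outside the cell by the receptor antagonist (Il1rn), which occupies the receptor without a signal, and by the decoy receptor (Il1r2), which binds IL-1 and passes nothing on. After cord injury, microglia, arriving neutrophils and blood-borne macrophages are the known sources of the ligands.

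To show where NF-kB could be read from sequence, the 250 bases upstream of the start that RefSeq (GRCr8) gives for each gene were searched for the kB consensus on both strands. Of the 9 genes 8 had a promoter in the RefSeq table, and 2 of those 8 held a match, Nfkbia and Il1r1. Among all 33469 promoters of the same length, 6.33% held a match. The consensus was GGGRNNYYCC, where R is A or G, Y is C or T and N is any base. The 30 bases around each match are printed with the matching 10 bases in capitals, 5′ to 3′ on the gene's strand. Both matches fit the consensus on the opposite strand, so the capitals show its reverse complement. Counted from the start used, the Nfkbia match begins at base −31, in chr6:78597084-78597113 on the minus strand. The Il1r1 match begins at base −135, in chr9:50034238-50034267 on the plus strand. In both genes the annotated span runs upstream of that start, so all or most of the window lies inside the gene.
Nfkbia: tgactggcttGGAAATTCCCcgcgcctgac
Il1r1: cagagaccctGGAATGCCCCgcagggatgt
The windows before Il1b (chr3:137036582-137036831, minus strand) and Tnf (chr20:3626435-3626684, plus strand) end where those genes begin. They are shown because Il1b rose strongly on the arrays and Tnf little. The letters of the consensus are in neither window, which says nothing of whether NF-kB acts on these genes.
Il1b: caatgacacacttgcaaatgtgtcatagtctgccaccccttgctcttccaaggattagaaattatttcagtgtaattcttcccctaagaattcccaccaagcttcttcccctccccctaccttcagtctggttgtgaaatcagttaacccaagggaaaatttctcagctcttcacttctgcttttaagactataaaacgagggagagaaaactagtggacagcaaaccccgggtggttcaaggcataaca
Tnf: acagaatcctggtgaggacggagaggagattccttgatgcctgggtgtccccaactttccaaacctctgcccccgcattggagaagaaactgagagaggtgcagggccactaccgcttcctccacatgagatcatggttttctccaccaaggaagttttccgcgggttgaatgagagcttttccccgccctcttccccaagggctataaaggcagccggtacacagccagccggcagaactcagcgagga

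Values are log2 RMA signals, so a difference of 1 is a doubling. Genes were tested with limma where at least 1 group mean of the segment or of normal cord reached 6.55, the 40th percentile of the cord values. That left 11553 genes rostral, 11922 in the lesion and 11479 caudal. All 9 genes passed rostral and in the lesion, and 7 passed caudal, where Tnf and Tnfrsf1b stayed below the filter in every group. Rostrally Tnf passed through 1 of 22 groups, tube alone on day 3 (mean 6.64), and Tnfrsf1b through 2, tube alone on day 3 (6.73) and NT-3 tube on day 1 (6.58). A gene is called higher or lower at a Benjamini-Hochberg adjusted p under 0.05. Each difference is given with its standard error where one is shown. Arrays of the same group correlated at a median of 0.9929 over genes, and at the lowest at 0.9649. The label of the tissue was checked against marker lists. In normal cord 11 of 12 neuron markers, 9 of 9 astrocyte markers and 7 of 7 oligodendrocyte markers on the array stood above the filter. In the lesion control lesion the mean of 12 neuron markers relative to normal cord was −3.74 to −1.92 log2 units, and the mean of 11 skeletal muscle markers was 2.32 to 3.81. Bulk RNA cannot tell fewer cells of a type from less RNA per cell, nor more cells from more RNA.

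In lesion control cord 8 of the 9 genes were called higher than normal cord on rostral day 1, the exception being Tnf (0.20, adjusted p = 0.0548), and the members differed in how far they rose and on how many days they were called. Rostral to the lesion, 8, 6, 7, 7, 6, 5 and 5 of the 9 genes were called higher on days 1, 3, 10, 20, 30, 60 and 90, against 22.9%, 29.9%, 25.3%, 30.2%, 28.5%, 25.2% and 21.6% of all genes tested. In the lesion 9, 8, 7, 7, 6 and 6 of 9 were called higher on days 3 to 90, against 42.3%, 38.3%, 37.6%, 41.1%, 34.9% and 32.6%. Caudally 6, 7, 6, 6, 6, 4 and 4 of 7 were called higher on days 1 to 90, against 23.1%, 32.8%, 20.1%, 25.7%, 28.4%, 25% and 18.7%. Over the 3 segments that is 44 of 63, 43 of 54 and 39 of 49 combinations of gene and day. No combination of 166 was called lower, where 29.7% of all genes and days were, and 129 of the 166 had an unadjusted p under 0.05, all 126 calls among them.

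**Figure D1:**
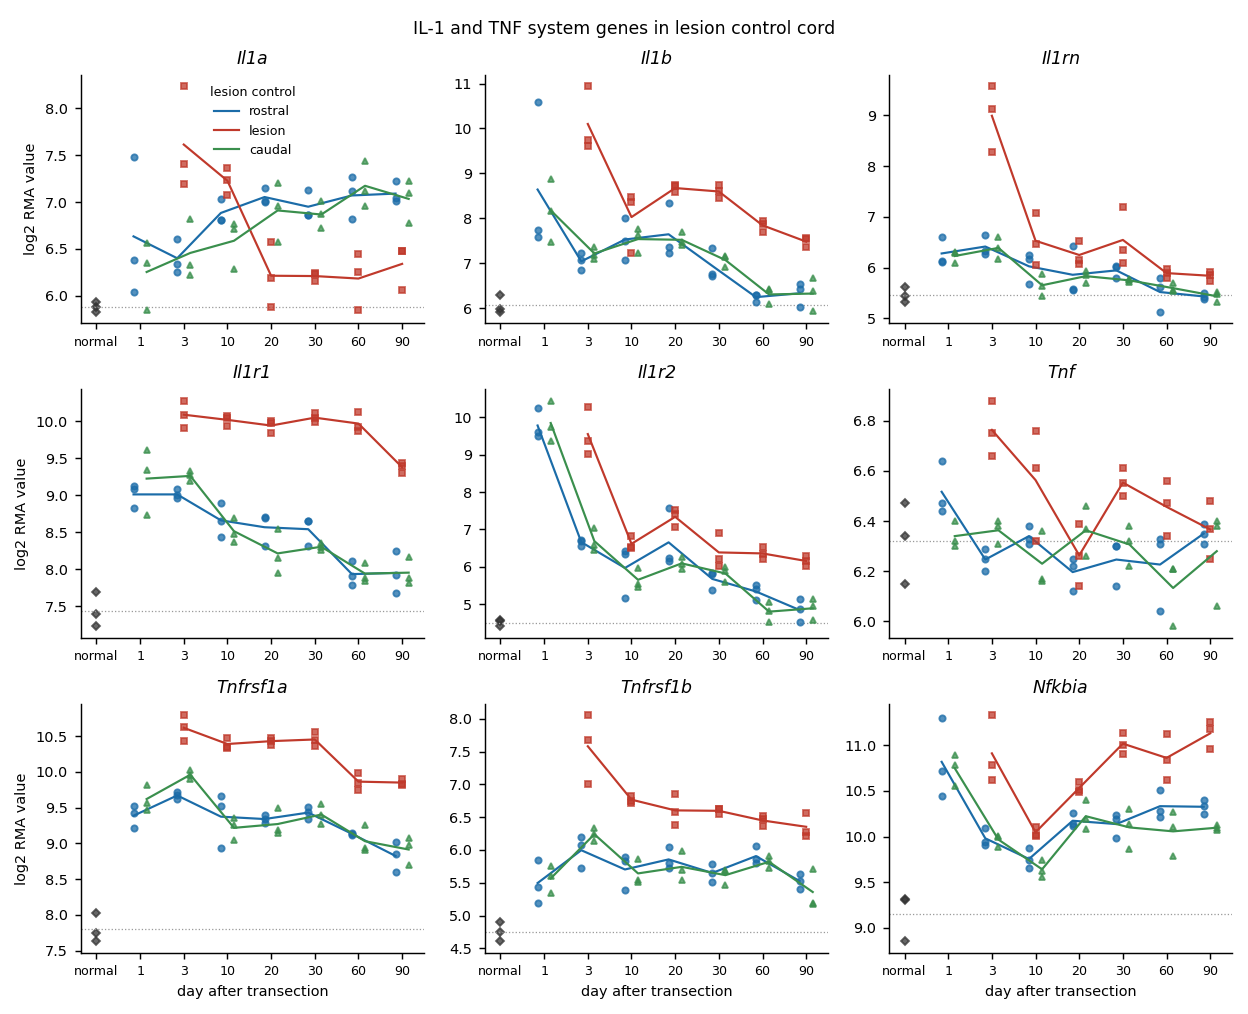
Log2 RMA value of the 9 genes (1 panel each) in lesion control cord by day after transection, with points for single arrays, lines through group means of the rostral, lesion and caudal segments, and normal cord as diamonds at the left with a dotted line at its mean. Il1r2 is highest on day 1 in both stumps (9.37 to 10.45), while Il1r1, Tnfrsf1a and Nfkbia stay above normal cord to day 90 and Tnf lies close to it.

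Among the ligands, Il1b, the secreted IL-1 that caspase-1 cuts from its precursor, rose most in the lesion. Its 3 lesion control arrays on day 3 read 9.61, 9.74 and 10.95, against 5.99, 5.92 and 6.28 in normal cord. The groups did not overlap, and the difference was 4.04 ± 0.29 log2 units (limma, adjusted p = 6.91e-14). Il1b stayed higher in the lesion on every later day, by 1.96 on day 10, 2.61 on day 20, 2.53 on day 30, 1.78 on day 60 and 1.42 ± 0.29 on day 90 (adjusted p = 9.09e-05). The lesion control arrays of day 90, at 7.53, 7.56 and 7.35, still all exceeded normal cord.

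In the stumps Il1b was higher early and was back near normal cord by day 60. Rostral day 1 read 10.60, 7.59 and 7.73 in lesion control, against the same 3 normal arrays, a difference of 2.58 ± 0.60 (adjusted p = 0.000379). Replicate 1 stood far above the other lesion control pools. Here and throughout, leaving out a replicate means leaving out that number of the arm on all days and in all segments at once. Without it the difference was 1.60 and still called (adjusted p = 0.0389). Caudal day 1, at 8.88, 7.48 and 8.17 in lesion control, was higher by 2.11 ± 0.36 (adjusted p = 2.75e-06). On days 60 and 90 the stumps differed from normal cord by 0.18 to 0.27, and none of these 4 differences was called. Caudally Il1b was called higher on each day to day 30, on day 30 (1.01) not without lesion control replicate 3 (0.96, adjusted p = 0.0565). Rostrally it was called on days 1, 10 and 20, where the last 2 calls ended without lesion control replicate 2 (1.22, adjusted p = 0.139) or replicate 3 (1.23, adjusted p = 0.132) and without normal cord replicate 1 or 2 (adjusted p of 0.0528 to 0.0828).

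Il1a, the IL-1 that cells hold ready and release when damaged, had another course, called to day 90 in the stumps and to day 10 in the lesion. In the stumps it was still higher on day 90: lesion control rostral arrays read 7.22, 7.04 and 7.01, against 5.88, 5.83 and 5.93 in normal cord, a difference of 1.21 ± 0.28 (adjusted p = 0.000385). Caudal day 90 differed by 1.15 ± 0.23 (adjusted p = 9.09e-05), with lesion control arrays at 7.1, 6.78 and 7.22. All arrays of both stumps on day 90 lay above all normal arrays. The other Il1a probe set, in the fit of every probe set described below for Tnf, was called higher on fewer days: 2 of 7 rostral (0.94 on day 60 and 0.91 on day 90), 4 of 7 caudal and 1 of 6 in the lesion, against 6, 6 and 2 for the probe set used. In the lesion Il1a was higher on day 3, by 1.73 ± 0.23 (adjusted p = 5.34e-08), and on day 10, by 1.35 ± 0.23 (adjusted p = 5.1e-06). From day 20 to day 90 it was not called there, at 0.30 to 0.46 above normal cord.

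That left Il1a lower in the lesion than rostral to it in the same arm on days 20, 30, 60 and 90, by −0.84, −0.74, −0.89 and −0.75 (SE 0.26 each; adjusted p = 0.00449, 0.0114, 0.00229 and 0.0117). No other gene was lower in the lesion, so 4 of the 36 combinations of gene and day from day 20 to day 90 were called lower, against 28.4% of genes and days called lower. The lesion control lesion arrays of day 90 read 6.06, 6.48 and 6.48, and no array overlapped the rostral ones. Without replicate 2 of lesion control day 20 gave −0.62 (adjusted p = 0.111) and day 60 gave −0.62 (adjusted p = 0.0993). Without replicate 1 day 30 gave −0.67 (adjusted p = 0.0732) and day 90 gave −0.55 (adjusted p = 0.159). The early rostral call on day 1, 0.75 ± 0.28, also ended without lesion control replicate 1 (0.33, adjusted p = 0.402) or normal cord replicate 2 (0.73, adjusted p = 0.0625). Caudal calls of days 3 (0.58) and 10 (0.71) ended without lesion control replicate 2 (0.40, adjusted p = 0.18) and 3 (0.61, adjusted p = 0.0677).

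Tnf, the founding ligand of its family, hardly moved on the probe set used. It was called higher only in the lesion on day 3, with lesion control arrays at 6.66, 6.75 and 6.88, against 6.34, 6.47 and 6.15 in normal cord (0.44 ± 0.11, adjusted p = 0.000764). On the other 5 lesion days it differed from normal cord by −0.06 to 0.24 and on the rostral days by −0.12 to 0.20, with no call.

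The other Tnf probe set was dimmer and moved more. Its group means correlated with those of the probe set used at r = 0.681 over 56 groups, as a description. In lesion control lesion on day 3 it read 5.50, 5.82 and 5.57, against 4.54, 4.69 and 4.14 in normal cord. Fitted beside every other probe set without the filter, an alternative added after the data were seen, it was higher by 1.17 ± 0.18 (adjusted p = 7.86e-07). In that fit it was also higher on day 1, by 0.91 rostral (adjusted p = 0.000728) and 0.59 caudal (adjusted p = 0.012). Of all 31099 probe sets 31.4%, 13.5% and 13.9% were called higher in those 3 comparisons. All its lesion control arrays lay below 6.55, and levels of the 2 probe sets are not compared.

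Of the receptors, Il1r1 was called higher than normal cord in all 20 comparisons of lesion control with normal cord. In the lesion it was 1.94 to 2.65 higher. Day 3 read 10.08, 9.91 and 10.28 in lesion control, against 7.23, 7.69 and 7.40 in normal cord (2.65 ± 0.15, adjusted p = 9.19e-17). In the stumps it was highest on days 1 and 3, by 1.57 rostral on both days and by 1.79 and 1.82 caudal. By days 60 and 90 the stump differences were 0.50 to 0.52, and each of those 4 calls ended without at least 1 lesion control or normal cord pool (0.36 to 0.50, adjusted p of 0.0601 to 0.151). The other 2 Il1r1 probe sets had group means that correlated with those of the probe set used at r = 0.75 and 0.656 over 56 groups, and were called higher than normal cord on 0 to 3 days per segment.

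Tnfrsf1a, the widely expressed TNF receptor that carries a death domain, was called higher in all 20 comparisons, by 2.05 to 2.81 in the lesion and by 1.02 to 2.16 in the stumps. Day 3 in the lesion read 10.43, 10.63 and 10.79 in lesion control, against 7.63, 8.03 and 7.75 in normal cord (2.81 ± 0.10, adjusted p = 6.88e-22). Even on day 90 rostral, its smallest difference, the lesion control arrays at 8.60, 8.85 and 9.02 all stood above normal cord (1.02 ± 0.12, adjusted p = 5.72e-10).

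Tnfrsf1b, the TNF receptor found mainly on immune and endothelial cells, was called higher in all 13 comparisons in which it was tested. Day 3 in the lesion read 7.01, 7.68 and 8.05 in lesion control, against 4.61, 4.90 and 4.75 in normal cord (2.83 ± 0.20, adjusted p = 2.25e-14). It was still 1.60 ± 0.20 higher there on day 90 (adjusted p = 1.67e-08). Rostrally it was higher by 0.74 to 1.24, and the day 1 call ended without lesion control replicate 1 (0.57, adjusted p = 0.104). The rostral lesion control means (5.50 to 6.00) and normal cord (4.75) lay below the filter, where RMA compresses signals.

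Among the brakes, the decoy receptor Il1r2 was high at the earliest time sampled in each segment. Day 1 read 10.25, 9.6 and 9.5 rostral and 9.37, 9.73 and 10.45 caudal in lesion control, against 4.40, 4.56 and 4.55 in normal cord. No injured array came near a normal one: the differences were 5.28 ± 0.46 rostral (adjusted p = 3.54e-13) and 5.35 ± 0.30 caudal (adjusted p = 6.74e-20). The normal arrays lie below the filter, where RMA compresses signals, so no fold is given. The lesion on day 3, at 9.01, 9.37 and 10.28 in lesion control, was 5.05 ± 0.37 higher (adjusted p = 7.8e-14).

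Il1r2 then fell in the stumps within the next interval sampled. Day 3 was lower than day 1 by −3.12 ± 0.46 rostral (adjusted p = 7.38e-07) and −3.16 ± 0.30 caudal (adjusted p = 5.78e-12). In the lesion day 10 was lower than day 3 by −2.94 ± 0.37 (adjusted p = 8.09e-08). By days 60 and 90 the stumps were 0.29 to 0.83 above normal cord with no call, while the lesion stayed 1.65 ± 0.37 higher on day 90 (adjusted p = 0.000232). Rostral calls of days 10 (1.46) and 30 (1.17) ended without lesion control replicate 2 (1.24 and 1.09, adjusted p = 0.0539 and 0.0899). The mean of 8 neutrophil markers in lesion control stood 1.78 above normal cord rostral on day 1 (arrays from 1.54 to 2.12) and 1.17 on day 3 (0.58 to 1.51), and 4 and 3 of the 8 were below the filter on those days, against 5 in normal cord. The part of neutrophil content in the Il1r2 values was not tested.

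The receptor antagonist Il1rn rose most in the lesion. Day 3 in the lesion read 9.12, 8.27 and 9.58 in lesion control, against 5.62, 5.44 and 5.32 in normal cord (3.53 ± 0.35, adjusted p = 8.07e-11). By day 10 it was −2.46 ± 0.35 below day 3 (adjusted p = 6.37e-07), and it was 1.07, 0.79 and 1.08 above normal cord on days 10, 20 and 30. Each of those 3 calls ended without a lesion control pool, day 10 without replicate 1 (0.80, adjusted p = 0.0814), and days 20 and 30 without replicate 3 (0.65 and 0.76, adjusted p = 0.136 and 0.0787). That of day 20 also ended without any of the normal cord pools (0.72 to 0.87, adjusted p of 0.0514 to 0.108). In the stumps Il1rn was called higher on days 1 and 3, by 0.77 to 0.95, and on no later day. Its lesion control stump means, at most 6.41, and normal cord (5.46) lay below the filter, where RMA compresses signals. It was tested there only through groups with implants. The rostral day 1 call, 0.82, ended without lesion control replicate 1 (0.66, adjusted p = 0.129). Il1b stayed called in the lesion on days 60 and 90, when Il1rn, at 0.43 and 0.38 above normal cord, was not. Whether the 2 genes differed from each other was not tested.

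Nfkbia, the NF-kB inhibitor, was called higher in all 20 comparisons. Rostral day 1 read 11.30, 10.72 and 10.44 in lesion control, against 9.31, 8.85 and 9.30 in normal cord (1.67 ± 0.25, adjusted p = 2.46e-07). On day 10 its differences were at their smallest, 0.60 rostral, 0.89 in the lesion and 0.49 caudal, and neither stump call held throughout. The rostral call ended without any of the 3 lesion control pools (0.54 to 0.65, adjusted p of 0.0521 to 0.104), the caudal call without replicate 3 (0.44, adjusted p = 0.068), and both without normal cord replicate 2 (0.45 and 0.34, adjusted p = 0.171 and 0.138). In the lesion it then rose again: day 90 arrays of lesion control read 10.96, 11.26 and 11.18, against 10.11, 10.01 and 10.02 on day 10, a change of 1.09 ± 0.16 (adjusted p = 1.49e-06). Of 66 combinations of gene and interval this 1 was called a rise, where 14.8% of all genes and intervals were. Other settings called 1 to 7.

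Falls between days were commoner. In rostral lesion control 4 of 9 genes (14.5% of all genes) were lower on day 3 than on day 1, 0 of 9 (10.9%; 1 at an unadjusted p under 0.05) were lower on day 10 than on day 3, and 2 of 9 (10.1%) were lower on day 90 than on day 10. In the lesion 5 of 9 (29.5%) were lower on day 10 than on day 3, and 3 of 9 (21%) were lower on day 90 than on day 10. Caudally 3 of 7 (21.1%), 4 of 7 (20.8%) and 2 of 7 (5.63%) were lower over the same intervals. The rostral falls from day 1 to day 3 of Il1b (−1.60) and Nfkbia (−0.84) ended without lesion control replicate 1, at −0.52 (adjusted p = 0.653) and −0.58 (adjusted p = 0.193), as did that of Tnf (−0.27, and −0.23 with adjusted p = 0.113). That pool had the highest Il1b, Nfkbia and Il1a of its group. The rostral falls of Il1r1 (−0.71) and Tnfrsf1a (−0.55) from day 10 to day 90 also ended without replicate 1 (−0.58 and −0.29, adjusted p = 0.102 and 0.196), while that of Tnfrsf1a was −0.86 without replicate 3.

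The lesion exceeded the rostral stump in all 9 genes on day 3, in a fit of all cord arrays in which 37.1% of 11989 genes were higher. On days 10, 20, 30, 60 and 90 the count was 3, 3, 6, 7 and 6 of 9, against 31.8%, 25.9%, 34.5%, 31.2% and 28.6%. The 3 genes of days 10 and 20 were the receptors Il1r1, Tnfrsf1a and Tnfrsf1b. On day 60 Il1r1 was 2.03 ± 0.18 higher in the lesion (adjusted p = 1.23e-18), with lesion control arrays at 9.92, 9.87 and 10.12 in the lesion, against 7.79, 7.91 and 8.11 rostral. Caudal and rostral stumps were not told apart: 0 of 63 combinations were called (limma; 1 at an unadjusted p under 0.05), where 0.587% of all genes and days were, and 7 were called when arrays were weighted by quality.

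The question put by the implants was whether the NT-3 tube changed this course. Tube alone was sampled in the lesion on day 3 only, so from day 10 on NT-3 and the tube itself cannot be told apart there. In the lesion Il1rn was higher with the NT-3 tube on each of days 10, 20, 30, 60 and 90, and Il1b and Il1r2 on days 10, 20 and 30. On day 3 Il1rn was at −0.94 and not called (adjusted p = 0.056). No gene was higher then (9.99% of all genes were) and Tnf was lower (8.03% were), by −0.33 ± 0.11 (adjusted p = 0.0385), a call that ended without any of lesion control replicates 2 and 3 and NT-3 tube replicates 2 and 3 (−0.36 to −0.19, adjusted p of 0.0912 to 0.286). Then 3, 9, 4, 3 and 4 of 9 were higher on days 10, 20, 30, 60 and 90, against 2.8%, 19.5%, 8.38%, 15.4% and 16.5% of all genes. Of the 54 combinations 23 were called higher. On day 20, when all 9 were higher, 14.3% of all genes were lower.

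**Figure D2:**
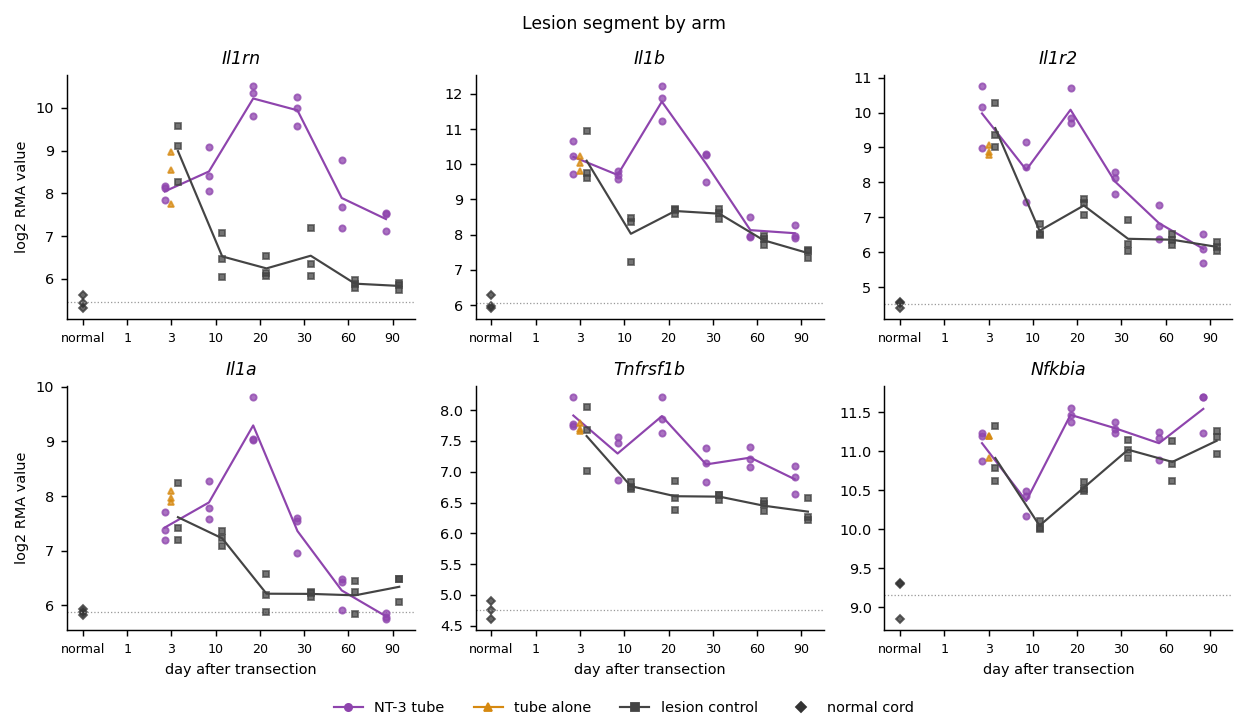
Log2 RMA value of Il1rn, Il1b, Il1r2, Il1a, Tnfrsf1b and Nfkbia (1 panel each) in the lesion segment by day after transection, with points for single arrays and lines through group means of the NT-3 tube, tube alone (day 3 only) and lesion control arms, and normal cord as diamonds at the left with a dotted line at its mean. Il1rn lies higher with the NT-3 tube from day 10 to day 90, and on day 20 the NT-3 tube arrays lie above the lesion control arrays in all 6 panels.

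Il1rn, the receptor antagonist, was the gene called on the most lesion days. On day 20 its arrays read 10.34, 10.52 and 9.80 with the NT-3 tube, against 6.06, 6.15 and 6.53 in lesion control (3.97 ± 0.35, adjusted p = 1.91e-10). On day 30 they read 10.26, 9.58 and 9.99 with the NT-3 tube, against 6.35, 6.08 and 7.20 in lesion control (3.40, adjusted p = 1.65e-08). The arms did not overlap on any of these days. The difference was 1.99 on day 10, 2.00 on day 60 and 1.56 ± 0.35 on day 90 (adjusted p = 0.00131), when the arrays read 7.53, 7.54 and 7.13 with the NT-3 tube and 5.91, 5.74 and 5.86 in lesion control.

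The ligand Il1b was also highest on day 20 with the NT-3 tube, when it read 12.23, 11.88 and 11.22 with the NT-3 tube, against 8.58, 8.71 and 8.73 in lesion control (3.10 ± 0.29, adjusted p = 1e-09, 8.59-fold). It was 1.67 higher on day 10 and 1.42 higher on day 30. On days 60 and 90 Il1b was not called, while Il1rn was. Il1a was higher on day 20, at 9.82, 9.02 and 9.04 with the NT-3 tube, against 6.57, 5.88 and 6.19 in lesion control (3.08 ± 0.23, adjusted p = 1.28e-11). On day 30 it was 1.15 higher (adjusted p = 0.000544), and on day 60 the arms overlapped. On day 90 it read 5.75, 5.86 and 5.79 with the NT-3 tube, against 6.06, 6.48 and 6.48 in lesion control, lower without overlap but not called (−0.54, adjusted p = 0.0777). Tnf was 0.67 ± 0.11 higher on day 20 (adjusted p = 2.5e-05), with arrays at 6.95, 7.03 and 6.83 under the NT-3 tube and 6.39, 6.14 and 6.26 in lesion control.

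On its other probe set, Tnf read 7.03, 6.92 and 7.1 with the NT-3 tube on day 20, against 4.65, 4.90 and 4.59 in lesion control. That is a difference of 2.30 ± 0.18 (adjusted p = 3.81e-11) where 12.7% of all probe sets were higher. It was also called higher by 0.99 on day 10, 1.02 on day 30 and 0.79 on day 60, days on which the probe set used was not. The 2 probe sets differ in the size of the Tnf difference and in the days called, and share its direction on day 20.

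**Figure D3:**
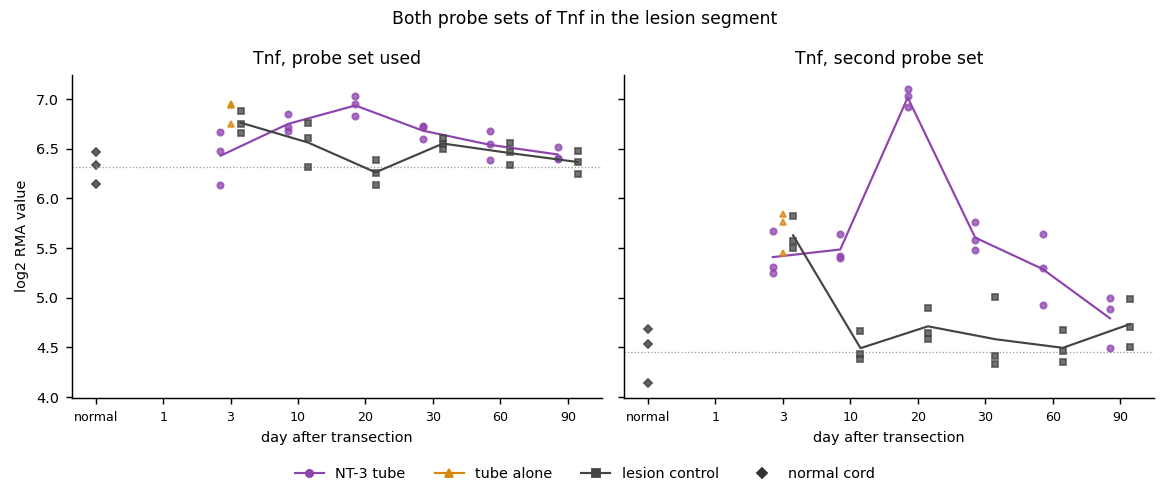
Log2 RMA value of the probe set used for Tnf (left panel) and of its second probe set (right panel) in the lesion segment by day after transection, with points for single arrays, lines through group means of the NT-3 tube, tube alone (day 3 only) and lesion control arms, and normal cord as diamonds at the left. On day 20 both lie higher with the NT-3 tube, by 0.67 in the left panel and 2.30 in the right.

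The decoy receptor Il1r2 was 2.74 ± 0.37 higher with the NT-3 tube on day 20 (adjusted p = 7.64e-07), 1.74 higher on day 10 and 1.65 higher on day 30. Its day 20 arrays read 10.71, 9.70 and 9.83 with the NT-3 tube, against 7.07, 7.53 and 7.41 in lesion control. Among the signalling receptors Il1r1 was called on day 20 only, by 0.71 ± 0.15 (adjusted p = 0.000355). Tnfrsf1b was 1.3 ± 0.20 higher on day 20 (adjusted p = 4.96e-06) and 0.78 higher on day 60. Its 0.53 on day 90 was lost without NT-3 tube replicate 2 (0.42, adjusted p = 0.172), and without 3 other pools in turn.

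Tnfrsf1a was higher late, by 0.55 ± 0.10 on day 60 (adjusted p = 0.00024) and 0.65 ± 0.10 on day 90 (adjusted p = 4.15e-05). On day 90 its arrays read 10.34, 10.72 and 10.43 with the NT-3 tube and 9.90, 9.83 and 9.82 in lesion control, without overlap. Its 0.26 on day 20 ended without any of 5 pools (0.22 to 0.28, adjusted p of 0.0582 to 0.179). Nfkbia was 0.93 ± 0.16 higher on day 20 (adjusted p = 2.07e-05), with arrays at 11.55, 11.38 and 11.47 under the NT-3 tube and 10.49, 10.51 and 10.60 in lesion control. Its 0.41 on day 90 ended without any of 5 pools (0.32 to 0.47, adjusted p of 0.0523 to 0.199).

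Averaged over the 6 lesion days, all 9 genes were higher with the NT-3 tube, where 23% of all genes were. The mean difference was 2.00 ± 0.14 for Il1rn, 1.19 ± 0.12 for Il1b, 1.16 ± 0.15 for Il1r2 and 0.71 ± 0.10 for Il1a, whose days run from −0.54 to 3.08. It was 0.67 for Tnfrsf1b, 0.39 for Nfkbia, 0.28 for Tnfrsf1a, 0.21 for Il1r1 and 0.14 for Tnf. The Tnf call ended without lesion control replicate 3 or NT-3 tube replicate 2 (0.12 each, adjusted p = 0.0573 and 0.0946). Of the genes with several probe sets, the second Il1a probe set was higher on day 20 alone and the other 2 Il1r1 probe sets on no day.

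Other measures moved with the arms in the lesion. RT1-CE10, a major histocompatibility class I gene, stood 2.58 log2 units above lesion control in NT-3 tube lesions of day 20, 3.86 on day 90 and 1.2 on day 3, while on days 10, 30 and 60 the arms differed by 0.15 to 0.54. The labels give no batch. Over days 10, 30 and 60 alone, an alternative added after the data were seen, 7 of 9 genes were higher (14.7% of all genes). Il1rn differed by 2.46 ± 0.20 (adjusted p = 3.81e-11), Il1r2 by 1.29, Il1b by 1.12, Il1a by 0.63, Tnfrsf1b by 0.61, Nfkbia by 0.28 and Tnfrsf1a by 0.23. Il1r1, at 0.01, and Tnf, at 0.13, were not called on those days, and the Nfkbia call ended without any of 3 pools (0.23 to 0.27, adjusted p of 0.0553 to 0.108).

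Marker lists differed between arms in the lesion as well. On day 20 the mean of 14 microglia and macrophage markers stood 2.76 above normal cord with the NT-3 tube (arrays from 2.66 to 2.82) and 1.93 in lesion control (1.87 to 2.02), with 0 of 14 below the filter in either arm. The mean of 9 lymphocyte markers stood at 2.95 with the NT-3 tube (2.73 to 3.31, 1 marker below the filter) and 1.36 in lesion control (1.29 to 1.41, 5 below). The mean of 8 neutrophil markers was 2.77 with the NT-3 tube (2.67 to 2.88) and 2.80 in lesion control (1.84 to 3.47). The mean of 11 skeletal muscle markers was 0.26 with the NT-3 tube (−0.47 to 1.11, 6 below) and 3.81 in lesion control (2.98 to 4.47, 1 below). On day 90 the macrophage means stood at 1.64 (1.34 to 1.82) with the NT-3 tube and 1.75 (1.69 to 1.86) in lesion control, the lymphocyte means 1.46 and 0.69, the neutrophil means 0.47 and 1.33, and the muscle means 0.47 and 3.04. Lists of cord cells lay further below normal cord with the NT-3 tube. The mean of 12 neuron markers was −4.42 (−4.57 to −4.19, 5 below) with the NT-3 tube and −2.32 (−2.51 to −2.18, 4 below) in lesion control on day 20, and −3.86 and −1.92 on day 90. The mean of 7 oligodendrocyte markers was −3.26 (−3.62 to −3.06, 0 below) with the NT-3 tube and −2.34 (−2.61 to −2.07, 0 below) in lesion control on day 20, and −3.14 and −1.54 on day 90. The part of any list in the differences was not tested.

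The difference was larger in the lesion than in the rostral stump for 7 of the 9 genes, in a test of that difference over days 3 to 90 that called 14.3% of all genes higher. It was 1.92 ± 0.17 larger for Il1rn (adjusted p = 1.26e-17), 1.18 ± 0.27 for Il1b, 1.12 ± 0.23 for Il1r2, 0.66 ± 0.12 for Tnfrsf1b and 0.39 ± 0.12 for Nfkbia. For Il1a, at 0.43 ± 0.15, and Tnfrsf1a, at 0.22 ± 0.07, the call ended without lesion control replicate 2 (0.33 and 0.17, adjusted p = 0.155 and 0.124), among other pools. Il1r1 (0.21, adjusted p = 0.123) and Tnf (0.07) were not called. This test was added after the data were seen.

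**Figure D4:**
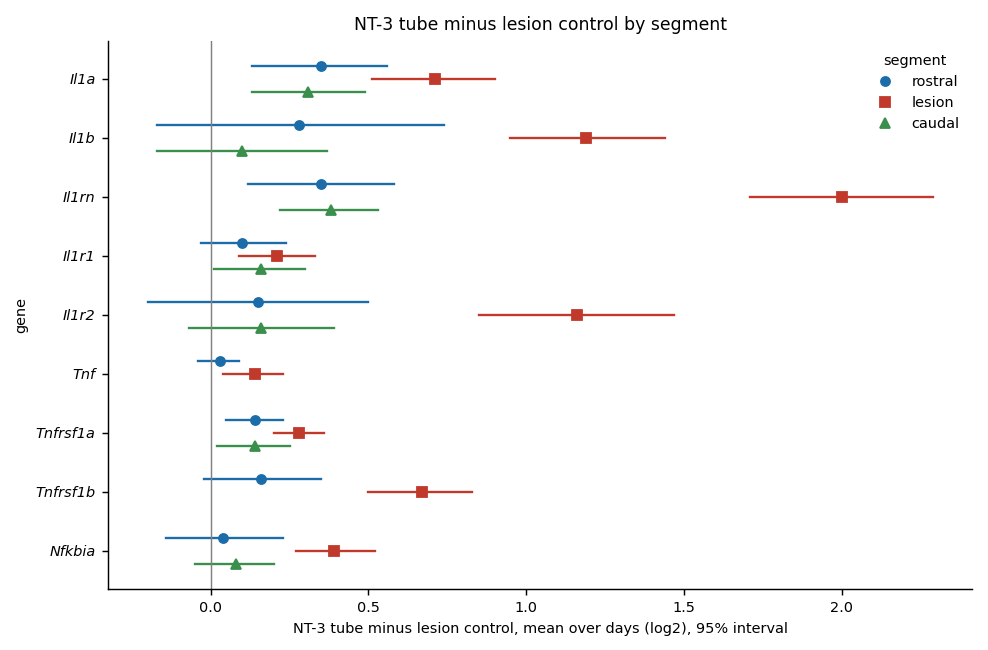
Difference between NT-3 tube and lesion control averaged over days (log2 units, horizontal axis) for each gene (vertical axis) in the rostral, lesion and caudal segments, with points for the difference and bars for its limma confidence interval. The lesion point of Il1rn lies at 2.00 and its caudal point at 0.38, and Tnf and Tnfrsf1b have no caudal point because they were not tested there. The intervals are not adjusted for the number of genes, and no rostral mean was called.

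In the rostral stump the NT-3 tube differed from lesion control on day 1. There 6 of 9 genes were higher, against 17.3% of all genes: Il1rn by 1.98 ± 0.30 (adjusted p = 3.92e-06), Il1b by 1.89, Tnfrsf1b by 1.08, Il1a by 0.78, Il1r1 by 0.69 and Tnfrsf1a by 0.62. Tnfrsf1b passed the rostral filter only through this group (6.58) and tube alone on day 3 (6.73). Il1rn passed it through 3 of 22 groups, this one (8.25) and tube alone on days 1 and 3. Both calls here were favoured by the filter and are no independent support, and the count of 6 includes them. Il1rn read 7.57, 8.94 and 8.25 with the NT-3 tube, against 6.60, 6.13 and 6.10 in lesion control, without overlap. Il1b read 9.71, 11 and 10.89 with the NT-3 tube, against 10.60, 7.59 and 7.73 in lesion control. These overlap through lesion control replicate 1. Without that pool the Il1b difference was 2.87 and that of Il1a 1.2. Without lesion control replicate 2 or 3 it was 1.37 (adjusted p = 0.158) or 1.44 (adjusted p = 0.109), and without NT-3 tube replicate 2 or 3 it was 1.66 or 1.72 (adjusted p = 0.0837 and 0.0863), so the Il1b call rests on these pools. The Il1a call likewise ended without lesion control replicate 2 or 3 or NT-3 tube replicate 2 (0.48, 0.65 and 0.52; adjusted p = 0.30, 0.138 and 0.244).

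On the same day and segment the neutrophil marker mean was 3.01 with the NT-3 tube (arrays from 2.37 to 3.40, 0 of 8 markers below the filter), 2.28 with tube alone (2.10 to 2.42, 1 below) and 1.78 in lesion control (1.54 to 2.12, 4 below). RT1-CE10 was 4.08 log2 units higher with the NT-3 tube and 4.11 higher with tube alone than in lesion control. The part of either in the day 1 differences was not tested. From day 3 to day 90 no gene differed rostrally on the probe sets used (0 of 54 by limma, 2 at an unadjusted p under 0.05; 2.24% of all genes and days were called). In the fit of every probe set, the other Tnf probe set was called higher than lesion control on 1 of 7 rostral days with the NT-3 tube (−0.20 to 1.13). With tube alone it was called on 1 of 7 (−0.13 to 1.16). No pool was left out in that fit.

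Caudally 1 of 49 combinations was called (11 at an unadjusted p under 0.05), a share about that of all genes and days (2.01%). It was Il1r2 on day 3, by 1.02 ± 0.30 (limma, adjusted p = 0.0472). It read 7.42, 7.42 and 8.28 with the NT-3 tube and 6.57, 6.44 and 7.05 in lesion control. That call ended without any of 4 pools (0.73 to 1.16, adjusted p of 0.096 to 0.274). Averaged over all days 2 of 7 caudal genes were higher with the NT-3 tube, where 3.95% of all genes were: Il1rn by 0.38 ± 0.08 (adjusted p = 0.00151) and Il1a by 0.31 ± 0.09 (adjusted p = 0.0192). Il1rn passed the caudal filter through 3 of 22 groups, NT-3 tube on day 1 (6.83) among them, so its call was favoured by the filter. The Il1a call ended without any of 4 pools (0.27 to 0.33, adjusted p of 0.0574 to 0.0656). On days with like RT1-CE10 Il1a was not called, and Il1rn was, at 0.47, though not without lesion control replicate 1 or 2 or NT-3 tube replicate 3 (0.29 to 0.47, adjusted p of 0.0698 to 0.147). Rostral and caudal implant effects were not told apart in either arm (0 of 18 by limma, 1 at an unadjusted p under 0.05, 0.0792% of all genes).

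The empty tube alone was also compared with lesion control. Rostrally on day 1, 2 of 9 genes were higher (8.03% of all genes). Il1rn read 7.49, 8.04 and 7.86 with tube alone, against 6.60, 6.13 and 6.10 in lesion control (1.52 ± 0.30, adjusted p = 0.000393). Tube alone on day 1 was among the 3 rostral groups through which Il1rn passed the filter. This call was therefore favoured by the filter and is no independent support. Tnfrsf1a was 0.41 ± 0.12 higher (adjusted p = 0.0112), a call that ended without lesion control replicate 2 (0.33, adjusted p = 0.13) or tube alone replicate 2 (0.38, adjusted p = 0.0574). The comparisons of both implant arms with lesion control share the lesion control arrays.

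On day 3 rostrally 6 of 9 genes were called higher with tube alone, where 1.7% of all genes were, and the calls rest on 1 pool. Il1b read 7.44, 12.4 and 8.12 with tube alone, against 6.84, 7.22 and 7.06 in lesion control. Replicate 2 stood more than 4 log2 units above its fellow pools, and it was also the highest of its group for Il1rn (9.59), Il1r2 (10.53), Il1a (8.81) and Nfkbia (11.95). With it the differences were 2.28 for Il1b, 1.68 for Il1rn, 1.55 for Il1r2, 1.18 for Il1a, 0.81 for Nfkbia and 0.39 for Tnf, which passed the filter through this group alone and so had to be high in it. Without it none was called: 0.74 for Il1b (adjusted p = 0.464), 0.93 for Il1rn (adjusted p = 0.0523), 0.39 for Il1r2 (adjusted p = 0.653), 0.56 for Il1a (adjusted p = 0.287) and 0.23 for Nfkbia (adjusted p = 0.647), and Tnf was not tested. The neutrophil marker mean of the group ran from 1.74 to 3.13, against 0.58 to 1.51 in lesion control. Il1rn passed the rostral filter only through tube alone on day 3 (8.09), tube alone on day 1 and NT-3 tube on day 1. Its call on day 3 was favoured by the filter and is no independent support.

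**Figure D5:**
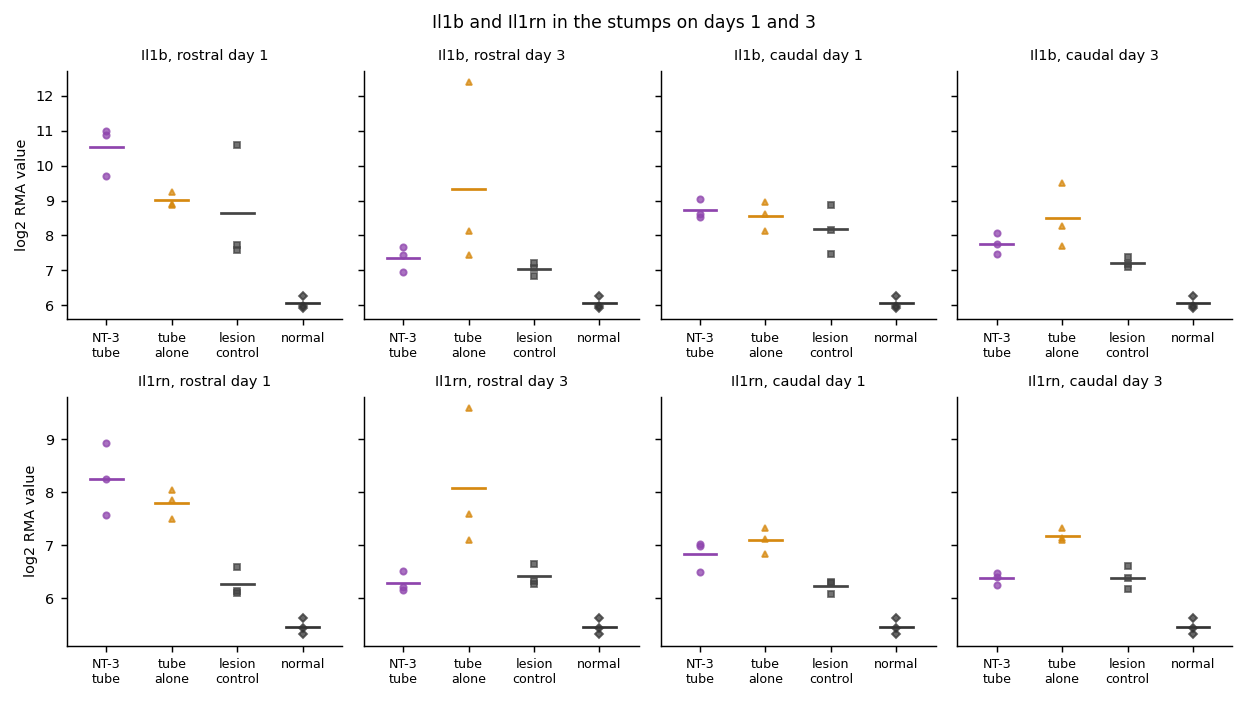
Log2 RMA value of Il1b (upper row) and Il1rn (lower row) in the rostral and caudal stumps on days 1 and 3, with points for single arrays of the NT-3 tube, tube alone and lesion control arms and of normal cord, and short bars at group means. Single Il1b pools stand apart in lesion control rostral day 1 (10.60) and tube alone rostral day 3 (12.4).

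Tube alone was also compared with lesion control on later days and in the other segments. From day 10 to day 90 rostrally 3 of 45 combinations were called, no larger a share than the 8.61% of all genes and days. These were Il1r1 on day 60 (0.84 ± 0.18, adjusted p = 0.000908) and Tnfrsf1a on days 60 (0.37) and 90 (0.57 ± 0.12, adjusted p = 0.000431). The day 60 call of Tnfrsf1a ended without any of 4 pools (0.35 to 0.38, adjusted p of 0.0549 to 0.0909). RT1-CE10 was 3.04 higher with tube alone on day 60, and 0.41 higher on day 90. Averaged over days 5 of 9 genes were higher (12.2% of all genes), and 3 of 9 on days with like RT1-CE10 (5.89%), Il1rn by 0.48, Tnfrsf1a by 0.18 and Tnf by 0.16. Day 3 is in both means. Tnf, called in both, passed the rostral filter through tube alone on day 3 only. Il1rn, called in both, passed it only through tube alone on days 1 and 3 and NT-3 tube on day 1. Tnfrsf1b, called over all days (0.31), passed it only through tube alone on day 3 and NT-3 tube on day 1. The calls of these genes were favoured by the filter and are no independent support, and the counts include them. Without tube alone replicate 2 the Il1rn and Tnfrsf1a calls over like days ended (0.33 and 0.15, adjusted p = 0.0526 and 0.147), and Tnf was not tested. Caudally 3 of 49 were called (1.93%; 9 at an unadjusted p under 0.05, and 9 calls with array weights), Il1rn on days 1 (0.87) and 3 (0.80) and Il1b on day 3 (1.28, and 0.78 with adjusted p = 0.218 without tube alone replicate 2). Both Il1rn calls ended without tube alone replicate 3 (0.75 and 0.73, adjusted p = 0.0739 and 0.0942). Tube alone on days 1 (7.1) and 3 (7.19) were among the 3 caudal groups through which Il1rn passed the filter, so it favoured both calls. In the lesion on day 3, 1 of 9 was called (7.1%): Tnfrsf1a, lower by −0.34 ± 0.10, which ended without any of 4 pools (−0.25 to −0.33).

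Set against tube alone, the NT-3 tube differed in 5 of 63 rostral combinations (7.79% of all genes and days), 1 of 49 caudal ones (3.61%) and 3 of 9 in the lesion on day 3 (23.5%). The rostral share was about that of all genes and the caudal share was no higher, so these counts do not set the 9 genes apart. Rostrally all 5 were lower with the NT-3 tube: Il1rn on day 3 (−1.80 ± 0.30), Il1r1 on day 60 (−0.69 ± 0.18), Tnfrsf1a on days 60 (−0.36) and 90 (−0.42), and Nfkbia on day 60 (−0.71). Il1rn on day 3 read 6.15, 6.22 and 6.52 with the NT-3 tube, against 7.1, 9.59 and 7.59 with tube alone, without overlap. Without tube alone replicate 2 that difference was −1.05 (adjusted p = 0.0322). Tube alone on day 3 (8.09) was 1 of 3 rostral groups through which Il1rn passed the filter, so this call was favoured by it. On day 60 RT1-CE10 was −3.19 lower with the NT-3 tube, and its part was not tested. The caudal call was Il1rn on day 3 (−0.81 ± 0.20), with arrays at 6.26, 6.41 and 6.47 under the NT-3 tube and 7.14, 7.1 and 7.32 with tube alone. The filter favoured it, since tube alone on day 3 was 1 of 3 groups through which Il1rn passed caudally. In the lesion on day 3 Il1r2 was 1.06 ± 0.37 higher, Tnfrsf1a was 0.43 ± 0.10 higher and Tnf was −0.45 ± 0.11 lower with the NT-3 tube. Of these 9 calls, the Tnfrsf1a and Nfkbia calls rostrally, the caudal Il1rn call and the Il1r2 and Tnf calls in the lesion each ended without at least 1 pool.

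The other genes of the 2 pathways were read from 6 lists, which leave out the 9 genes themselves. On day 1 rostrally, 6 of 6 tested genes of IL-1 ligands and their maturation were higher in lesion control than in normal cord, 9 of 15 of TNF ligands, shedding and receptor signalling, 3 of 7 of NF-kB subunits and kinases and 10 of 15 of the brakes, with none lower, where 22.9% of all genes were higher. Of the IL-1 receptor family and its signalling 3 of 10 were higher and 2 lower, and of genes known to be induced by IL-1 and TNF 21 of 28 were higher and 1 lower, where 25.9% of all genes were lower. The induced genes had a median difference of 2.42, against −0.02 over all genes. In the lesion on day 3 they were 25 of 29 higher and 2 lower (median 2.65, against 0.11 over all genes, of which 42.3% were higher and 34.8% lower).

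By day 90, 10 of 28 induced genes were higher rostrally (median 0.53, against −0.06 for all genes, 21.6% of them higher and 29.3% lower) and 19 of 29 in the lesion (median 1.11, against −0.01, 32.6% higher and 32.6% lower). The maturation list was still 6 of 6 higher in both segments. The genes named next, here and in the following paragraph, were picked from each list as those called most often in the comparisons of lesion control with normal cord. How often they were called therefore reflects that choice and says nothing of the lists as wholes. Casp1, the protease that activates IL-1β, was higher in 20 of 20 comparisons of lesion control with normal cord, by 1.09 to 2.72. Pycard, the inflammasome adaptor, was higher in all 20 by 0.65 to 2.80, and Gsdmd, whose fragment forms the pore through which IL-1β leaves, in all 20 by 0.40 to 1.97.

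Downstream of the receptors, Myd88, the adaptor of the IL-1 receptor, was higher in 20 of 20 by 1.23 to 2.87. Il1rap, its co-receptor, was called in 18 by up to 1.87. Tab3, an adaptor of the kinase TAK1, went the other way, with 14 of 20 lower and values from −0.95 to −0.07. On the TNF side Ripk3, a kinase of necroptosis, was higher in all 20 by 1.16 to 4.34, and Casp8, the initiator protease of death receptors, in all 20 by 0.62 to 2.18. Nfkb2 was called higher in 18 and Nfkb1 in 18, both NF-kB subunits. Among the other brakes Nfkbiz, an atypical IkB protein that also activates some targets, rose by 0.61 to 3.12, and Zfp36, which destabilises Tnf messenger RNA, by 0.90 to 2.61, each in all 20. Of the induced genes Ccl2, a monocyte attractant, rose by 2.06 to 7.03 and Tnfaip6, a hyaluronan-binding protein, by 2.24 to 5.25 in all 20.

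With the NT-3 tube on day 20 in the lesion, 22 of 29 induced genes, 12 of 16 brakes, 12 of 15 TNF genes, 5 of 7 NF-kB genes, 5 of 10 IL-1 receptor genes and 5 of 6 maturation genes were higher than in lesion control, and none was lower, where 19.5% of all genes were higher and 14.3% lower. The median of the induced genes was 1.57, against 0.04 over all genes. Ccl2 was 2.11 ± 0.19 higher (adjusted p = 3.88e-10), Ripk3 1.33 ± 0.12 (adjusted p = 7.44e-10), Nfkbiz 1.3 ± 0.22 (adjusted p = 2.57e-05) and Casp1 0.96 ± 0.14 (adjusted p = 3.09e-06). Tnfaip6 (0.48, adjusted p = 0.0946) and Cebpd (0.21, adjusted p = 0.414) were not called. On day 3, 6 of 29 induced genes were higher and 3 lower, where 9.99% of all genes were higher and 8.03% lower, with a median of 0.01.

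Across the 56 cord groups the members fell into courses of unlike shape. Group means of Il1r1 and Tnfrsf1a correlated at r = 0.947, of Il1b and Il1rn at 0.900 and of Il1b and Il1r2 at 0.892, while Il1a correlated at 0.112 with Il1r1 and at no more than 0.477 with any other member. These are descriptions over groups that share a segment, an arm or a day, with no test. The genes whose group means were most like those of Il1b were Mmp9 (r = 0.941), a protease of neutrophil granules, Napsa (0.93) and Ccl20 (0.921). Il1r2 was most like Il6 (0.952), Slpi (0.95) and Cxcl2 (0.939), and Il1rn most like Birc3 (0.945). Nfkbia was most like Zfp36 (0.89), Tnfrsf1a like Tagln2 (0.963) and Tnfrsf1b like Gsap (0.967). Il1r1 was most like Klf10 (0.964), Tnf like Nags (0.847), and Il1a, with its own course, like Arhgap25 at only 0.753.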

How the data were processed

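Total RNA was hybridised to Affymetrix rat genome arrays. Per the labels and the submitters' processing notes, the authors used Affymetrix Expression Console with RMA (no version is named there). The deposited values are log2 RMA signals of 31099 probe sets from 2.6 to 15.0. RMA equalises arrays and compresses low signals, so small differences near background are understated. Array medians lay between 7.1 and 7.25, and the values were used as deposited. Precision is limited by how few arrays each group has.

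Of the probe sets, 20832 carry 1 symbol, 436 carry several and 9831 are unnamed in the annotation used. limma 3.58.1 in R 4.3.3 fitted each segment with the normal cord arrays, 1 mean per arm and day. Comparisons of segments, and of implant effects between segments, used 1 fit over all 167 cord arrays. P-values were adjusted by Benjamini and Hochberg within each comparison over all genes tested. The scripts were tested on simulated data. The 9 genes, the gene lists and the rule for named genes (up to 4 genes of each list, those called most often in the 20 comparisons of lesion control with normal cord, and for each member the 3 genes with the highest correlation of group means; RT1-CE10 beside arm comparisons) were chosen with earlier results of these data known. Alternatives were dropping the filter, normalizing by quantiles again, a robust eBayes prior with a trend, weighting arrays, blocking on replicate number, fits of fewer or all groups, the mean of probe sets, and leaving out each replicate number of an arm on all its days. Replicate numbers were taken as names. Same-numbered arrays of 2 arms deviated together in 54 of 147 pairs (correlation over 0.1; median 0.024), so the numbers were not taken to pair samples. Same-numbered arrays of different segments, which may come from the same animals, did so in 64 of 138 pairs (median 0.065). Comparisons of segments treat them as independent, and a replicate block gave as many calls (34 higher and 4 lower for lesion minus rostral, 0 for caudal minus rostral). The 5 arrays of universal reference RNA were not used in comparisons. P-values measure the spread between pools.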

Additional observations from a re-analysis of the deposited data

Results flagged for a closer look

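The difference between NT-3 tube and lesion control, averaged over days 3 to 90, was larger in the lesion than in the rostral stump by 1.92 log2 units for Il1rn, 1.18 for Il1b, 1.12 for Il1r2, 0.66 for Tnfrsf1b, 0.43 for Il1a, 0.39 for Nfkbia and 0.22 for Tnfrsf1a, each called in a limma test of that difference. The test was added after the data were seen. Of its 7 calls 5 held in every setting, and those of Il1a and Tnfrsf1a ended without lesion control replicate 2, among other pools. In 2 other cases every NT-3 tube array moved one way from lesion control in the lesion and the other way in a stump. Il1r2 on day 30 differed by 1.65 in the lesion and by −0.41 caudally. Nfkbia on day 20 differed by 0.93 in the lesion and by −0.23 rostrally. The difference between segments was not tested for these 2. Neither stump difference was called, and the caudal Il1r2 arrays of both arms on day 30 lay below the filter. How many of all genes show such a pattern was not counted.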

How the results depend on the processing

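Of 250 calls of single genes, none changed direction in any setting, 224 stayed called in every setting that left out no array, and 182 in every setting. By kind of comparison, 107 of 126 calls of lesion control against normal cord, 24 of 31 of NT-3 tube against lesion control, 3 of 15 of tube alone against lesion control and 3 of 9 of NT-3 tube against tube alone held throughout. Array weights moved most counts: tube alone against lesion control gave 18 rostral calls in place of 11, 9 caudal in place of 3 and 2 in the lesion in place of 1, NT-3 tube against lesion control gave 9 caudal in place of 1 and 2 lower in the lesion in place of 1, NT-3 tube against tube alone gave 8, 7 and 5 in place of 5 rostral, 1 caudal and 3 in the lesion, the rostral and caudal implant effects differed in 1 in place of 0, caudal minus rostral lesion control gave 7 in place of 0, and days of lesion control gave 35 falls and 7 rises in place of 23 and 1. The replicate block gave 2 caudal calls for NT-3 tube against lesion control and 2 against tube alone, in place of 1 each, and 3 rises between days. It also ended the calls of Tnfrsf1a in the NT-3 tube lesion on day 20 (0.20, adjusted p = 0.183) and Il1r1 caudally from day 10 to 90 (−0.56, adjusted p = 0.0509), and ended no other call. A fit of only the groups compared gave 2 and 0 of those caudal calls and 4 rises. A fit of all cord arrays gave 0 and 0, with 0 caudal and 0 lesion calls for tube alone, 2 lower calls for the NT-3 tube in the lesion and 4 rises. Without the filter there were 0 caudal NT-3 tube calls and 2 rises. A second quantile normalization gave 3 lower calls of lesion control against normal cord in place of 0, 0 for tube alone in the lesion and 3 rises. The mean of probe sets left 0 lower calls for the NT-3 tube in the lesion. On days with like RT1-CE10, NT-3 tube caudal means gave 1 call in place of 2 and tube alone rostral means 3 in place of 5. Leaving out replicates gave 0 to 1 lower lesion calls and 0 to 3 caudal calls for the NT-3 tube, 3 to 12 rostral, 0 to 4 caudal and 0 to 1 lesion calls for tube alone, 3 to 5 rostral and 0 to 1 caudal calls for NT-3 tube against tube alone, 14 to 22 falls and 1 to 3 rises between days, and 2 to 4 lower calls of lesion minus rostral. The cause was not tested.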
